A study of Setaria viridis with 15 samples.

Results

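Transcripts of 9 genes of the plant low-oxygen response were followed in Setaria viridis shoots (a C4 grass), whose seedlings had shared the air of a sealed plate with bacteria. The 9 genes were taken by identifier from the 28032 genes of the count table, and all 9 passed the filter on low counts that left 20310 genes to test. They were pyruvate decarboxylases 1 and 2, alcohol dehydrogenases 1 and 2, an L-lactate dehydrogenase, 2 non-symbiotic hemoglobins, and the ethylene response factors RAP2-3 and RAP2-12. Their names came from the descriptions in the authors' deposited tables, where 5 of them carry the suffix "-like".

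All plants were wild type, and each sealed system held 2 seedlings, 5 days old at transfer, on plant salt medium around a small dish of LB agar. The dish received 20 µL of the isolate AI2.2-A (4 libraries), CTB P6B8 (3 libraries) or MTS P5D6 (4 libraries), or no bacteria in the mock control (4 libraries), and shoots were harvested after 7 days under a 12 h photoperiod. Control seedlings thus had the same sealed plate and LB dish. The isolates were given by code only, and the number of plates behind each library was not given in the sources used here. The series asks how shoots respond to bacterial volatile compounds and plans all pairwise comparisons of the 4 treatments. RNA was read in bulk, so more cells with a transcript and more transcript per cell cannot be told apart.

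When oxygen is short, plant cells make ATP by glycolysis and regenerate NAD+ by fermentation. Pyruvate decarboxylase turns pyruvate into acetaldehyde, alcohol dehydrogenase turns acetaldehyde into ethanol, and lactate dehydrogenase turns pyruvate into lactate. Non-symbiotic hemoglobins bind oxygen tightly and convert nitric oxide to nitrate. In Arabidopsis, RAP2-3 and RAP2-12 belong to the group VII ethylene response factors, which are degraded while oxygen is present because plant cysteine oxidases mark their first cysteine, and which switch on fermentation and hemoglobin genes when oxygen falls.

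Total counts ran from 13852517 to 25123025 per library. The libraries were labelled as biological replicates, and p-values measure the spread between these samples. On the second principal component of log2 CPM (counts per 1000000 of the scaled library total), which held 24.5% of the variance, AI2.2-A replicate 4 stood apart from its group at 21.2 (others 45.6 to 54.3), within the CTB P6B8 range of 7.54 to 21.2. The label of shoots was checked on markers. The 25 shoot marker genes, for Rubisco small chains, light-harvesting proteins, phosphoenolpyruvate carboxylases and their kinases, summed to 18379 to 24769 CPM in controls, 16104 to 20991 beside AI2.2-A, 13806 to 18313 beside CTB P6B8 and 13174 to 15929 beside MTS P5D6, and the part of this shift in the results below was not tested. Of the 10 genes matched by root terms, the 5 casparian strip membrane proteins, which mark the root endodermis, summed to 0.432 to 3.72 CPM, and a root-specific lectin-like gene stood at 68.2 to 183 CPM. Most of the remaining sum came from ROOT HAIR DEFECTIVE 3-like (LOC117850168, 154 to 233 CPM) and ROOT HAIR DEFECTIVE 3 (LOC117853051, 42.8 to 64.4 CPM), which were matched by name and belong to a gene family that other organs express too. By group, the 10 summed to 407 to 476 CPM in controls, 318 to 398 beside AI2.2-A, 337 to 400 beside CTB P6B8 and 321 to 382 beside MTS P5D6, and no gene of the list was at 0 throughout a group. No isolate library exceeded the lowest control in that sum of 10. The casparian strip proteins alone summed to 1.89 to 3.72 CPM in controls and 2.04 to 3.26 beside AI2.2-A, within the control range. They summed to 1.16 to 2.02 CPM beside CTB P6B8 and 0.432 to 1.47 beside MTS P5D6. Whether the share of root tissue differed between groups was not tested.

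Beside every isolate 8 of the 9 genes rose and 1, the non-symbiotic hemoglobin-like gene, fell. Across all tested genes, 23.4% were called higher and 24.3% lower beside AI2.2-A, 22.6% and 22.7% beside CTB P6B8, and 23.9% and 28.3% beside MTS P5D6 (edgeR's quasi-likelihood test, Benjamini-Hochberg adjusted p under 0.05 over all genes). With total counts in place of TMM scaling, the share of calls that were higher was 67.6% in place of 49.0% (AI2.2-A), 63.8% in place of 49.9% (CTB P6B8) and 49.4% in place of 45.7% (MTS P5D6), and the 9 genes kept their directions, although the falls of the hemoglobin-like gene beside AI2.2-A and CTB P6B8 were no longer called. The same 8 were called higher in all 3 comparisons, as were 11.2% of tested genes. The 9 genes were chosen with earlier results of these data known. Their counts beside the shares over all genes therefore describe them and are no test of the set. The median log2 fold change of the 9 genes was 3.07 beside AI2.2-A, 2.03 beside CTB P6B8 and 2.01 beside MTS P5D6, beside -0.00 (AI2.2-A), 0.00 (CTB P6B8) and, for MTS P5D6, -0.05 over all tested genes. The 3 comparisons share their 4 control libraries. No isolate library overlapped the controls for any of the 8 genes that rose, in a background of 21.1% (AI2.2-A), 24.1% (CTB P6B8) and, for MTS P5D6, 21.6% of tested genes with every isolate library above every control.

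**Figure D1:**
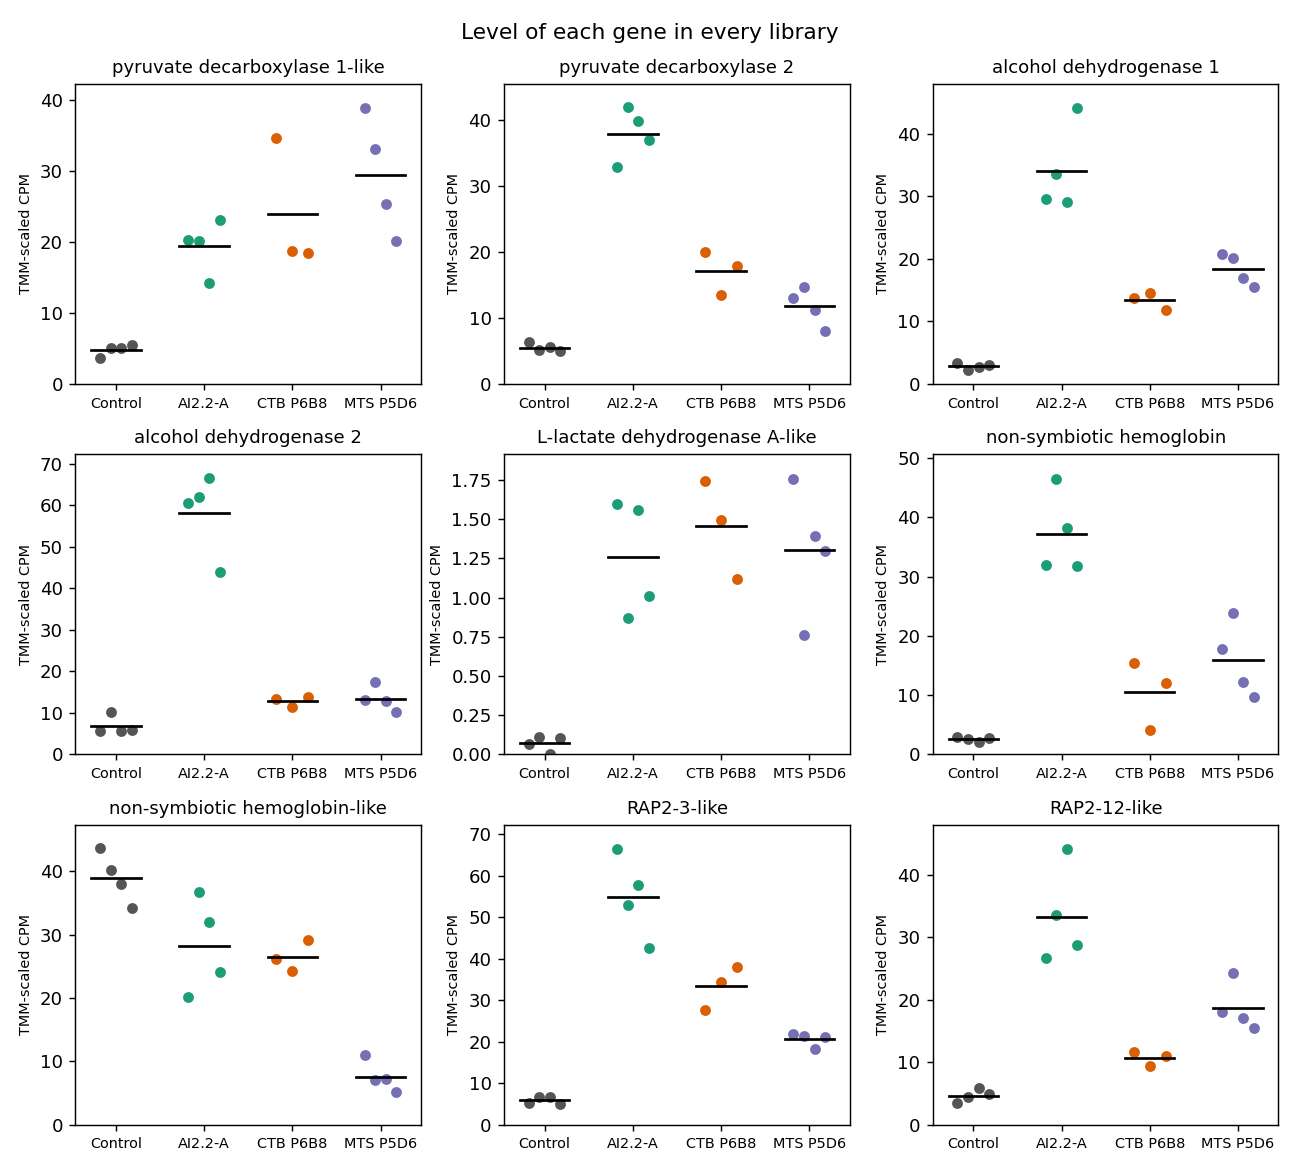
Level of each of the 9 genes in TMM-scaled CPM (vertical axes, from 0) in every library (points) of the 4 groups (horizontal axes), with the group mean as a line. The 8 genes that rose sit above the controls in all 11 isolate libraries, the non-symbiotic hemoglobin-like gene sits lowest beside MTS P5D6, and alcohol dehydrogenase 2 stands at 43.8 to 66.5 CPM beside AI2.2-A against 10.2 to 17.3 CPM with the other isolates.

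Pyruvate decarboxylase commits pyruvate to ethanol, and both of its genes followed here rose, with the isolate means in opposite order. Pyruvate decarboxylase 2 (LOC117836049) stood at 6.28, 5.06, 5.57 and 4.96 CPM in the controls, 32.9, 41.9, 39.8 and 36.9 CPM beside AI2.2-A, 20.0, 13.5 and 17.9 CPM beside CTB P6B8, and 13.0, 14.7, 11.2 and 8.02 CPM beside MTS P5D6. AI2.2-A was highest, with no overlap with any other group, and the CTB P6B8 and MTS P5D6 libraries overlapped. The rise was 6.95-fold beside AI2.2-A (log2 fold change 2.80 ± 0.17 SE, adjusted p = 2.77e-08), 3.15-fold beside CTB P6B8 (1.66 ± 0.18, adjusted p = 4.75e-06) and 2.16-fold beside MTS P5D6 (1.11 ± 0.17, adjusted p = 6.33e-05). AI2.2-A exceeded CTB P6B8 by 1.14 ± 0.16 (adjusted p = 0.00115) and MTS P5D6 by 1.69 ± 0.16 (adjusted p = 1.58e-06) on the log2 scale. CTB P6B8 exceeded MTS P5D6 by 0.55 ± 0.17 (adjusted p = 0.0247), a call that ended in 7 of 16 alternatives, with adjusted p from 0.00553 to 0.185, among them leaving out CTB P6B8 replicate 1 or 3 or MTS P5D6 replicate 3 or 4.

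Pyruvate decarboxylase 1-like (LOC117858936) stood at 3.58, 5.06, 5.04 and 5.43 CPM in the controls and at 20.2, 20.1, 14.3 and 23.1 CPM beside AI2.2-A. It stood at 34.6, 18.7 and 18.5 CPM beside CTB P6B8 and at 38.9, 33.1, 25.4 and 20.1 CPM beside MTS P5D6. Here the mean was highest beside MTS P5D6 and lowest of the isolates beside AI2.2-A, and all 3 isolate groups overlapped. CTB P6B8 replicate 1 stood well above the other libraries of its isolate. The rise was 4.05-fold beside AI2.2-A (log2 2.02 ± 0.25, adjusted p = 1.31e-05), 4.99-fold beside CTB P6B8 (2.32 ± 0.26, adjusted p = 6.91e-06) and 6.12-fold beside MTS P5D6 (2.61 ± 0.25, adjusted p = 6.94e-07). Neighbours in this order were not called different: AI2.2-A minus CTB P6B8 was -0.30 ± 0.24 (adjusted p = 0.440) and CTB P6B8 minus MTS P5D6 was -0.30 ± 0.24 (adjusted p = 0.377, or 0.0468 at -0.66 without CTB P6B8 replicate 1). AI2.2-A was lower than MTS P5D6 by 0.60 ± 0.22 (log2 -0.60, adjusted p = 0.0368), a call that ended in 6 of 17 alternatives, with adjusted p from 0.0134 to 0.136, among them leaving out AI2.2-A replicate 1, 2 or 3 or MTS P5D6 replicate 1 or 2.

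Alcohol dehydrogenase makes the ethanol and restores NAD+, and both of its genes followed here rose most beside AI2.2-A. Alcohol dehydrogenase 1 (LOC117833817) stood at 3.31, 2.23, 2.75 and 3.05 CPM in the controls, 29.5, 33.5, 29.0 and 44.1 CPM beside AI2.2-A, 13.7, 14.6 and 11.9 CPM beside CTB P6B8, and 20.7, 20.2, 16.9 and 15.5 CPM beside MTS P5D6. None of the 4 groups overlapped another, in the order AI2.2-A, MTS P5D6, CTB P6B8 and control. Against controls the rise was 12.0-fold (AI2.2-A, log2 3.59 ± 0.17, adjusted p = 1.56e-09), 4.72-fold (CTB P6B8, 2.24 ± 0.18, adjusted p = 3.39e-07) and 6.47-fold (MTS P5D6, 2.69 ± 0.17, adjusted p = 1.32e-08). Ranked by fitted log2 fold change among 20310 tested genes, it was at place 77 beside AI2.2-A, 411 beside CTB P6B8 and 275 beside MTS P5D6. AI2.2-A exceeded CTB P6B8 by 1.35 ± 0.15 (adjusted p = 0.000230) and MTS P5D6 by 0.89 ± 0.14 (adjusted p = 9.96e-05). CTB P6B8 minus MTS P5D6 was -0.45 ± 0.15 (adjusted p = 0.0378), a call that ended in 7 of 16 alternatives, with adjusted p from 0.0204 to 0.158, among them leaving out CTB P6B8 replicate 1 or 3 or MTS P5D6 replicate 1 or 2.

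Alcohol dehydrogenase 2 (LOC117834143) stood at 5.67, 10.1, 5.73 and 5.95 CPM in the controls and 60.5, 62.0, 66.5 and 43.8 CPM beside AI2.2-A. It stood at 13.2, 11.3 and 13.8 CPM beside CTB P6B8 and 13.2, 17.3, 12.8 and 10.2 CPM beside MTS P5D6. AI2.2-A lay far above both other isolates, which overlapped each other, and the lowest MTS P5D6 library was close to control replicate 2. The rise was 8.39-fold beside AI2.2-A (log2 3.07 ± 0.19, adjusted p = 4.29e-08), 1.85-fold beside CTB P6B8 (0.89 ± 0.21, adjusted p = 0.00275) and 1.93-fold beside MTS P5D6 (0.95 ± 0.20, adjusted p = 0.000823). AI2.2-A exceeded CTB P6B8 by 2.18 ± 0.20 (4.53-fold, adjusted p = 3.64e-05) and MTS P5D6 by 2.12 ± 0.18 (4.34-fold, adjusted p = 1.01e-06). CTB P6B8 minus MTS P5D6 was -0.06 ± 0.20 (adjusted p = 0.844).

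In the RefSeq gene table of the assembly Setaria_viridis_v4.0, alcohol dehydrogenases 1 and 2 neighbour each other with 1 long non-coding RNA gene between them, and so do RAP2-3-like and RAP2-12-like. The strand setting and the treatment of reads that match several genes were, in the sources used here, not given. The split of counts within such pairs is uncertain where the copies are alike.

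Lactate dehydrogenase is the other route from pyruvate, and its A-like gene was nearly silent in controls and rose with each isolate. Another L-lactate dehydrogenase-like gene (LOC117849180) passed the filter and is counted among the other pathway genes below. L-lactate dehydrogenase A-like (LOC117849186) had 1, 2, 0 and 2 counts in the controls, 40, 19, 30 and 21 beside AI2.2-A, 39, 26 and 29 beside CTB P6B8, and 32, 14, 27 and 21 beside MTS P5D6. Every isolate library lay above every control, and the 3 isolate groups overlapped. Relative to scaled totals, the summed counts were 16.6-fold higher beside AI2.2-A (95% counting interval 6.91 to 52.2), 18.8-fold beside CTB P6B8 (7.79 to 59.3) and 17.1-fold beside MTS P5D6 (7.07 to 53.8), intervals that cover counting error only. The fitted log2 fold changes were 3.95 ± 0.48, 4.15 ± 0.49 and 3.99 ± 0.48 (adjusted p = 1.01e-05, 9.81e-06 and 5.66e-06), and they depend on the prior count at so few control counts. Between isolates the differences were -0.20 ± 0.31 (AI2.2-A minus CTB P6B8, adjusted p = 0.720), -0.04 ± 0.30 (AI2.2-A minus MTS P5D6, adjusted p = 0.916) and 0.15 ± 0.31 (CTB P6B8 minus MTS P5D6, adjusted p = 0.748), so no difference was detectable at this depth.

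The hemoglobin genes moved in opposite directions. The non-symbiotic hemoglobin (LOC117840678) stood at 2.97, 2.61, 2.06 and 2.74 CPM in the controls, 32.0, 46.5, 38.2 and 31.8 CPM beside AI2.2-A, 15.4, 4.15 and 12.0 CPM beside CTB P6B8, and 17.7, 23.9, 12.2 and 9.68 CPM beside MTS P5D6. AI2.2-A stood above all other libraries, CTB P6B8 and MTS P5D6 overlapped, and CTB P6B8 replicate 2 was the isolate library nearest to the controls. The rise was 14.2-fold beside AI2.2-A (log2 3.83 ± 0.35, adjusted p = 9.16e-07), 4.08-fold beside CTB P6B8 (2.03 ± 0.38, adjusted p = 0.000475) and 6.07-fold beside MTS P5D6 (2.60 ± 0.36, adjusted p = 2.03e-05). AI2.2-A exceeded CTB P6B8 by 1.80 ± 0.33 (adjusted p = 0.00480) and MTS P5D6 by 1.22 ± 0.29 (adjusted p = 0.00298), while CTB P6B8 minus MTS P5D6 was -0.57 ± 0.33 (adjusted p = 0.206).

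The non-symbiotic hemoglobin-like gene (LOC117850458) stood at 43.6, 40.1, 38.0 and 34.1 CPM in the controls, 20.2, 36.7, 32.0 and 24.1 CPM beside AI2.2-A, 26.1, 24.2 and 29.2 CPM beside CTB P6B8, and 11.0, 7.07, 7.22 and 5.12 CPM beside MTS P5D6. All MTS P5D6 libraries lay below every other library, CTB P6B8 lay below the controls, and AI2.2-A overlapped both. Against controls it fell 5.10-fold beside MTS P5D6 (log2 -2.35 ± 0.20, adjusted p = 2.50e-07), where it was at place 71 from the lowest fold change of 20310 genes. With AI2.2-A it was -0.47 ± 0.18 (adjusted p = 0.0457) and beside CTB P6B8 -0.55 ± 0.20 (adjusted p = 0.0327). The first of these calls ended in 8 of 17 alternatives (adjusted p from 0.00834 to 0.163) and the second in 7 of 16 (0.00183 to 0.0991). For AI2.2-A these included leaving out control replicate 1, 2 or 3 or AI2.2-A replicate 1 or 4, and for CTB P6B8 control replicate 1, 2 or 3 or any of its own libraries. MTS P5D6 was lower than AI2.2-A by 3.69-fold (AI2.2-A minus MTS P5D6 1.89 ± 0.20, adjusted p = 4.99e-06) and than CTB P6B8 by 3.48-fold (CTB P6B8 minus MTS P5D6 1.80 ± 0.21, adjusted p = 5.44e-05), and AI2.2-A minus CTB P6B8 was 0.09 ± 0.20 (adjusted p = 0.814).

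Both ethylene response factors rose beside every isolate. RAP2-3-like (LOC117840982) stood at 5.26, 6.80, 6.72 and 5.02 CPM in the controls, 66.5, 53.0, 57.8 and 42.7 CPM beside AI2.2-A, 27.8, 34.6 and 38.0 CPM beside CTB P6B8, and 21.9, 21.4, 18.2 and 21.1 CPM beside MTS P5D6. The 4 groups did not overlap and stood in the order AI2.2-A, CTB P6B8, MTS P5D6 and control. The rise was 9.27-fold (AI2.2-A, log2 3.21 ± 0.15, adjusted p = 1.56e-09), 5.64-fold (CTB P6B8, 2.50 ± 0.16, adjusted p = 7.05e-08) and 3.48-fold (MTS P5D6, 1.80 ± 0.15, adjusted p = 2.00e-07). Each step was called: AI2.2-A minus CTB P6B8 was 0.72 ± 0.14 (adjusted p = 0.00660) and CTB P6B8 minus MTS P5D6 was 0.70 ± 0.14 (adjusted p = 0.00236). AI2.2-A minus MTS P5D6 was 1.42 ± 0.13 (adjusted p = 1.72e-06).

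RAP2-12-like (LOC117840983) stood at 3.44, 4.46, 5.88 and 4.96 CPM in the controls, 26.7, 33.6, 44.2 and 28.8 CPM beside AI2.2-A, 11.6, 9.39 and 11.0 CPM beside CTB P6B8, and 18.1, 24.3, 17.1 and 15.5 CPM beside MTS P5D6. Its 4 groups did not overlap either, but MTS P5D6 and CTB P6B8 changed places. The rise was 7.11-fold (AI2.2-A, log2 2.83 ± 0.19, adjusted p = 5.48e-08), 2.29-fold (CTB P6B8, 1.20 ± 0.20, adjusted p = 0.000238) and 4.01-fold (MTS P5D6, 2.01 ± 0.19, adjusted p = 6.37e-07). AI2.2-A minus MTS P5D6 was 0.82 ± 0.17 (adjusted p = 0.000907), CTB P6B8 minus MTS P5D6 was -0.81 ± 0.19 (adjusted p = 0.00570), and AI2.2-A minus CTB P6B8 was 1.63 ± 0.19 (adjusted p = 0.000271).

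**Figure D2:**
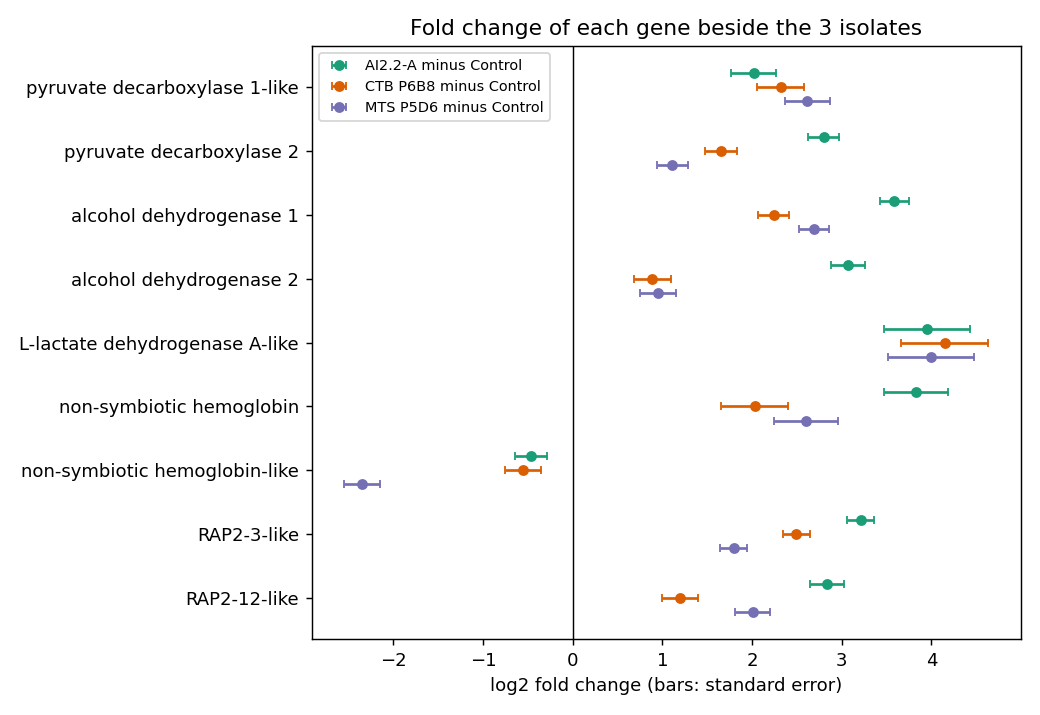
Log2 fold change against controls (horizontal axis) of each of the 9 genes (rows) beside each isolate (points, with standard error as bars; n = 4, 3 and 4 isolate libraries against 4 controls). AI2.2-A lies farthest right for 6 of the 8 genes that rose, the 3 isolates lie at 3.95 to 4.15 for L-lactate dehydrogenase A-like, and the non-symbiotic hemoglobin-like gene lies left of 0, at -2.35 beside MTS P5D6.

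Compared directly, AI2.2-A was higher than CTB P6B8 in 6 of the 9 genes and lower in 0, where 4.53% of tested genes were called higher and 5.86% lower. These were pyruvate decarboxylase 2, both alcohol dehydrogenases, the non-symbiotic hemoglobin and both RAP2 factors, and for each of the 6 every AI2.2-A library lay above every CTB P6B8 library (background 10.8%). All 6 stayed called in each of the 16 alternatives, also without AI2.2-A replicate 4, although the count of all genes called between these isolates, 2110, went to 1020 without AI2.2-A replicate 1, 1282 without AI2.2-A replicate 3 and 644 without CTB P6B8 replicate 2. Against MTS P5D6, AI2.2-A was higher in 7 genes (23.8% of tested genes called higher), the same 6 and the non-symbiotic hemoglobin-like gene, and lower in 1, pyruvate decarboxylase 1-like (21.4% called lower). CTB P6B8 was higher than MTS P5D6 in 3 genes (15.2% called higher), which were pyruvate decarboxylase 2, the non-symbiotic hemoglobin-like gene and RAP2-3-like. It was lower in 2 (11.1% called lower), alcohol dehydrogenase 1 and RAP2-12-like. Without CTB P6B8 replicate 3, 3 in place of 5 of the genes and 3345 in place of 5347 of all genes were called between these isolates. With total counts, 72.7% of the calls over all genes were higher beside CTB P6B8, in place of 57.9%. Leaving out AI2.2-A replicate 4 moved no log2 fold change of the 9 genes against controls by more than the standard errors given, and ended 1 call, that of the non-symbiotic hemoglobin-like gene against controls (-0.40, adjusted p = 0.112).

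Since both members of a family were counted in the same library, their ratio does not depend on scaling between libraries. The ratio of alcohol dehydrogenase 2 to 1 counts was 1.71, 4.54, 2.08 and 1.95 in the controls and 2.05, 1.85, 2.29 and 0.993 beside AI2.2-A. It was 0.964, 0.779 and 1.16 beside CTB P6B8 and 0.635, 0.860, 0.758 and 0.657 beside MTS P5D6. Both of the latter groups lay below every control, and MTS P5D6 also lay below every AI2.2-A library.

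The ratio of pyruvate decarboxylase 1-like to 2 was 0.570 to 1.09 in the controls, 0.358 to 0.627 beside AI2.2-A, 1.03 to 1.74 beside CTB P6B8 and 2.26 to 2.98 beside MTS P5D6. The 3 isolate groups did not overlap one another. The log2 ratio beside MTS P5D6 exceeded that beside AI2.2-A (AI2.2-A minus MTS P5D6 -2.29 ± 0.21 SE). The ratio of the non-symbiotic hemoglobin to the hemoglobin-like gene was 0.0542 to 0.0803 in the controls, 1.20 to 1.58 beside AI2.2-A, 0.171 to 0.592 beside CTB P6B8 and 1.61 to 3.38 beside MTS P5D6, and no group overlapped another. That of RAP2-12-like to RAP2-3-like was 0.654 to 0.990 in the controls, 0.401 to 0.765 beside AI2.2-A, 0.272 to 0.419 beside CTB P6B8 and 0.737 to 1.14 beside MTS P5D6. CTB P6B8 lay below the controls and MTS P5D6, and the other pairs overlapped.

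Over 24 ratio comparisons, 15 had groups that did not overlap. Two-sided exact permutation tests gave an unadjusted p of 0.0286 in 7 of them, the smallest that 4 against 4 libraries allow, and the smallest that 4 against 3 allow is 0.0571. No ratio comparison passed 0.05 after adjustment over the 24 (smallest adjusted p = 0.0857), and the ratios were chosen after the levels had been seen. How often groups fail to overlap in ratios of other gene pairs was not computed.

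**Figure D3:**
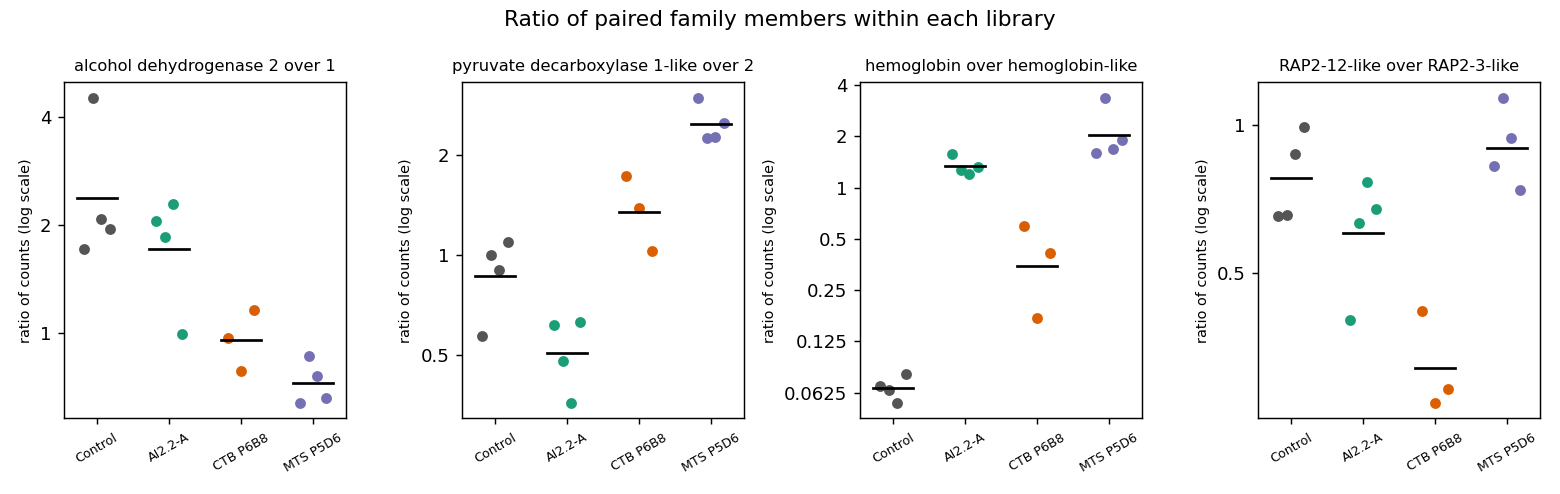
Ratio of counts of paired family members (vertical axes, log scale) in every library (points) of the 4 groups, with the geometric mean as a line. The pyruvate decarboxylase ratio lies at 0.358 to 0.627 beside AI2.2-A and at 2.26 to 2.98 beside MTS P5D6, and the hemoglobin ratio lies at 0.0542 to 0.0803 in controls.

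Other genes of the pathway were read from 10 lists made by patterns on the descriptions, without the 9 genes. Each count below stands against the shares over all tested genes, which were 23.4% higher and 24.3% lower beside AI2.2-A, 22.6% and 22.7% beside CTB P6B8, and 23.9% and 28.3% beside MTS P5D6. No list was tested as a set, and nothing particular to a list is read from its counts. The fermentation list had 9 tested genes, which were described as alcohol dehydrogenases or as the L-lactate dehydrogenase-like gene (LOC117849180). They include alcohol dehydrogenase class-3 (LOC117841547) and several alcohol dehydrogenase-like genes, so not all of them need act in fermentation. The only pyruvate decarboxylase of the list (LOC117847998) was not among the tested genes. Of these 9 other genes, 6 rose and 0 fell beside AI2.2-A, while 5 rose and 0 fell beside CTB P6B8. Beside MTS P5D6, 3 rose and 2 fell, counts near the shares over all genes. The list medians of the log2 fold change were 0.46, 0.39 and 0.07 in the same order, which later triplets of values follow too. Alcohol dehydrogenase-like 2 (LOC117838037) went from 39.1 ± 3.34 CPM in controls to 83.9 ± 10.7 beside AI2.2-A (SD, n = 4 and 4, log2 1.11 ± 0.10 SE) and 80.8 ± 11.3 beside CTB P6B8 (1.05 ± 0.11), and stood at 37.4 ± 1.92 beside MTS P5D6 (-0.06 ± 0.10, adjusted p = 0.641). Alcohol dehydrogenase-like 7 (LOC117838038) rose from 0.775 CPM to 3.26 CPM (AI2.2-A), 2.77 CPM (CTB P6B8) and 4.96 CPM (MTS P5D6). The gene described as alcohol dehydrogenase (LOC117861113) rose from 107 CPM to 139, 157 and 210 CPM.

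The list named for acetaldehyde to acetate held 7 genes described as family 2 aldehyde dehydrogenases or acetyl-coenzyme A synthetases, so not all of them act on that step. Of these 7 genes, 2 rose and 1 fell beside AI2.2-A, 3 and 1 beside CTB P6B8, and 3 and 4 beside MTS P5D6. Over all tested genes 23.4% were higher and 24.3% lower beside AI2.2-A, so the first counts are near background. The list medians were 0.20, 0.32 and -0.35. A mitochondrial aldehyde dehydrogenase, family 2 member B7 (LOC117836625), which oxidises acetaldehyde, rose from 49.8 ± 6.89 CPM to 155 ± 17.8, 139 ± 5.48 and 159 ± 20.5 CPM (SD, n = 4, 4, 3 and 4, log2 1.64 ± 0.11, 1.48 ± 0.12 and 1.68 ± 0.11). Acetyl-coenzyme A synthetase (LOC117863378), which activates acetate, fell from 538 CPM to 361, 292 and 346 CPM (log2 -0.58, -0.88 and -0.64). A C4-like member of the aldehyde dehydrogenase family (LOC117853311) fell beside MTS P5D6 (-0.90 ± 0.14) and was not called beside AI2.2-A (0.09, adjusted p = 0.614) or CTB P6B8 (-0.22, adjusted p = 0.241).

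The list named for oxygen sensing took in acyl-CoA-binding proteins and methionine aminopeptidases of any kind beside plant cysteine oxidases. Its counts and medians are therefore not those of the oxygen-sensing enzymes alone. Of its 24 tested genes, 6 rose and 8 fell beside AI2.2-A, 6 and 5 beside CTB P6B8, and 9 and 3 beside MTS P5D6. These are near the shares over all genes beside AI2.2-A (23.4% higher, 24.3% lower) and CTB P6B8 (22.6% and 22.7%), and the list medians were -0.04, 0.04 and 0.10. Within the list, plant cysteine oxidase 2-like (LOC117850613), of the enzyme family that oxidises the first cysteine of the RAP2 factors in Arabidopsis, rose from 17.99 ± 0.889 CPM to 64.0 ± 5.45 beside AI2.2-A, 26.4 ± 2.09 beside CTB P6B8 and 53.6 ± 4.41 beside MTS P5D6 (SD, n = 4, 4, 3 and 4). Its log2 fold changes were 1.83 ± 0.08, 0.55 ± 0.09 and 1.57 ± 0.08 (adjusted p = 1.56e-09, 0.000142 and 4.34e-09). The same order of the isolate means was seen for RAP2-12-like, alcohol dehydrogenases 1 and 2 and the non-symbiotic hemoglobin. MTS P5D6 and CTB P6B8 were not called different for alcohol dehydrogenase 2 (adjusted p = 0.844) or the hemoglobin (adjusted p = 0.206). For alcohol dehydrogenase 1 that call ended in 7 of 16 alternatives. Both pyruvate decarboxylases, L-lactate dehydrogenase A-like and RAP2-3-like had other orders, and a link to the oxidase was not tested. The acyl-CoA-binding protein 6 gene (LOC117840533) fell with each isolate (-0.41, -0.53 and -0.38), and a methionine aminopeptidase (LOC117862119) fell beside AI2.2-A (-0.20) and rose beside MTS P5D6 (0.58), with 0.13 beside CTB P6B8 (adjusted p = 0.131). Of 6 other RAP2 factors tested, 1 rose with each isolate, RAP2-13-like (LOC117854131, 0.56, 0.68 and 0.87). RAP2-4-like (LOC117838467) fell beside AI2.2-A (-0.34) and MTS P5D6 (-0.55), with -0.10 beside CTB P6B8 (adjusted p = 0.444).

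Sucrose synthases, which cleave sucrose at a low ATP cost, rose in 4 of 5 genes beside AI2.2-A and in 2 of 5 beside CTB P6B8, while 1 rose and 2 fell beside MTS P5D6. Over all genes, 23.4%, 22.6% and 23.9% were called higher and, beside MTS P5D6, 28.3% lower. The list medians were 0.66, 0.24 and -0.06. Sucrose synthase 2 (LOC117838151) went from 445 ± 55.2 CPM to 867 ± 175 beside AI2.2-A (log2 0.96 ± 0.16), 430 ± 44.0 beside CTB P6B8 (-0.05 ± 0.17, adjusted p = 0.838) and 218 ± 44.8 beside MTS P5D6 (-1.03 ± 0.16), where CPM are given ± SD (n = 4, 4, 3 and 4). Of 28 genes of the list named for pyrophosphate-linked and irreversible glycolysis steps, 13 rose and 6 fell beside AI2.2-A, 6 and 5 beside CTB P6B8, and 5 and 7 beside MTS P5D6. That list took in chloroplastic pyruvate kinases and phosphofructokinases, and pyruvate, phosphate dikinases with a regulatory protein. Its counts and medians are therefore not those of glycolysis in the cytosol alone. The counts beside CTB P6B8 and MTS P5D6 are at or below the shares over all genes (22.6% and 23.9% higher, 22.7% and 28.3% lower), and the medians were 0.25, 0.02 and -0.01. A gene for 6-phosphofructokinase (LOC117857531), which commits sugar to glycolysis, rose from 79.4 CPM to 146, 205 and 221 CPM. A pyruvate, phosphate dikinase 2-like gene (LOC117840767), of an enzyme that interconverts pyruvate and phosphoenolpyruvate, rose from 29.6 to 78.7 CPM beside MTS P5D6 (1.41 ± 0.14). It stood at 28.0 CPM beside AI2.2-A (adjusted p = 0.657) and 35.2 CPM beside CTB P6B8 (adjusted p = 0.187). Of 7 genes for alanine and 4-aminobutyrate synthesis, routes that hold carbon and nitrogen under low oxygen, 4 rose and 1 fell beside AI2.2-A, 5 and 1 beside CTB P6B8, and 3 and 1 beside MTS P5D6, against 23.4%, 22.6% and 23.9% higher and 24.3%, 22.7% and 28.3% lower over all genes. The medians were 0.31, 0.43 and 0.41. An alanine aminotransferase 2-like gene (LOC117835945) rose from 2.16 CPM to 8.84 beside AI2.2-A and 6.16 beside CTB P6B8, and stood at 2.88 CPM beside MTS P5D6 (adjusted p = 0.181). A glutamate decarboxylase 1-like gene (LOC117836422), of the enzyme that makes 4-aminobutyrate, rose from 1.03 CPM to 3.29, 2.82 and 6.24 CPM.

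The remaining lists bear on respiration, nitric oxide and ethylene, and over all genes 23.4%, 22.6% and 23.9% were called higher and 24.3%, 22.7% and 28.3% lower. Of 4 ubiquinol oxidase genes, which pass electrons to oxygen without pumping protons, 2 rose beside AI2.2-A, 2 beside CTB P6B8 and 3 beside MTS P5D6, and 1 fell beside MTS P5D6, with medians of 0.15, 0.31 and 1.06. Among them is ubiquinol oxidase 4 (LOC117849475), described as chloroplastic/chromoplastic, so the counts are not those of mitochondrial alternative oxidases alone. Ubiquinol oxidase 1b (LOC117865586) rose from 4.84 CPM to 10.3, 16.6 and 16.7 CPM. Ubiquinol oxidase 1a (LOC117863973) rose beside MTS P5D6 (1.35 ± 0.22), with -0.36 beside AI2.2-A (adjusted p = 0.194) and 0.27 beside CTB P6B8 (adjusted p = 0.375). Of 5 genes for nitrate reduction and ascorbate recycling, 3 fell with each isolate, 0 rose beside AI2.2-A, 1 beside CTB P6B8 and 2 beside MTS P5D6, with medians of -0.30, -0.30 and -0.18. NADH nitrate reductase (LOC117860413), whose product nitrite is a source of the nitric oxide that hemoglobins remove, fell from 853 CPM to 51.7, 28.9 and 39.2 CPM. Monodehydroascorbate reductase 3 (LOC117843915) rose beside CTB P6B8 (0.36) and MTS P5D6 (0.71) and stood at 0.07 beside AI2.2-A (adjusted p = 0.525). Of 14 genes named for ethylene synthesis, 5 rose and 5 fell beside AI2.2-A, 4 and 3 beside CTB P6B8, and 6 and 2 beside MTS P5D6, of which the counts beside CTB P6B8 are near the shares over all genes. The medians were -0.19, 0.11 and 0.20. Among them an ACC synthase-like gene (LOC117865806), of the enzyme that usually limits ethylene synthesis, rose from 7.04 CPM to 19.3, 35.3 and 47.9 CPM (log2 1.46 ± 0.27, 2.33 ± 0.28 and 2.77 ± 0.27), with the highest mean beside MTS P5D6 and the lowest of the isolates beside AI2.2-A. An ACC oxidase-like gene (LOC117851022) rose by 1.01 (AI2.2-A), 1.33 (CTB P6B8) and, for MTS P5D6, 1.24 on the log2 scale. A gene described as an ACC oxidase homolog (LOC117866645) fell from 15.1 CPM to 8.31, 9.56 and 5.54 CPM.

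**Figure D4:**
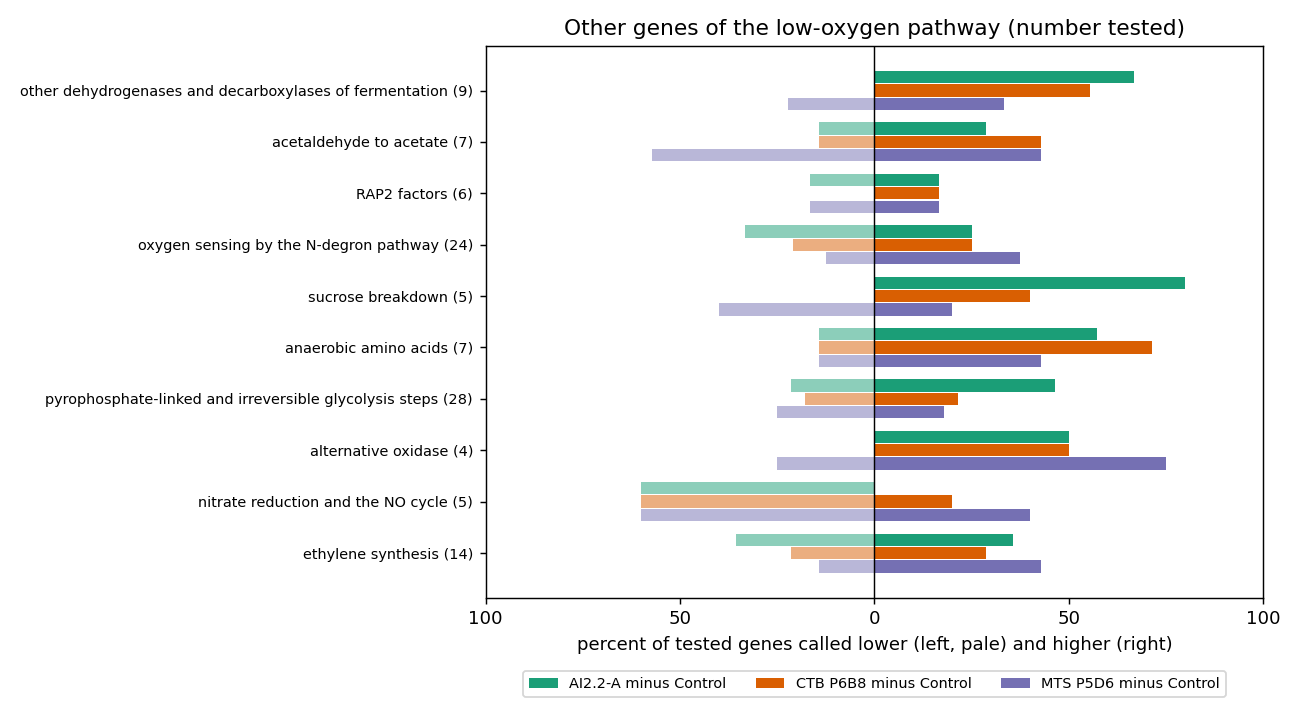
Percent of the tested genes of each pathway list (rows, number tested in brackets, the 9 genes left out) that were called lower (left, pale) and higher (right) beside each isolate (colours). Sucrose breakdown has 4 of 5 genes higher beside AI2.2-A. The oxygen sensing list, which also holds acyl-CoA-binding proteins and methionine aminopeptidases, has genes on both sides with every isolate.

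The 4 other genes most like alcohol dehydrogenase 1 were sought by the root mean square difference, over the 15 libraries, of log2 CPM centred on the control mean, among 13782 described genes with a mean log2 CPM of at least 1. They were a WRKY28-like transcription factor (LOC117851721, difference 0.49), a wall-associated receptor kinase 2-like gene (LOC117860153, 0.58), a non-specific lipid-transfer protein 1-like gene (LOC117847314, 0.60) and an endochitinase A-like gene (LOC117863036, 0.60). For the first, the log2 fold changes were 3.04, 2.69 and 2.70. Of the other 8 genes described here, the non-symbiotic hemoglobin (0.54) and RAP2-3-like (0.60) came nearest to it, pyruvate decarboxylase 1-like lay at 0.85 and alcohol dehydrogenase 2 at 1.13. Nearest to the non-symbiotic hemoglobin-like gene were a GDSL esterase/lipase EXL3-like gene (LOC117853935, 0.33), expansin-B3-like (LOC117836062, 0.39), endoglucanase 17-like (LOC117853909, 0.42) and the copper-transporting ATPase HMA5-like (LOC117863572, 0.43). Their log2 fold changes beside MTS P5D6 were -2.24, -2.46, -2.44 and -1.74.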

How the data were processed

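Per the labels' protocols, shoot RNA from a column kit went into stranded total RNA libraries. FastQC, Trimmomatic, HISAT2, featureCounts and DESeq2 (version 1.6.3) are listed by the submitters' processing notes without roles. Build, annotation and strand setting: not given in the sources used here. The authors deposited unnormalized whole-number counts of 28032 genes in 15 libraries. For 6 comparisons the authors deposited tables of a mean normalized signal, log2 fold changes and their errors, a test score, and a p-value column that repeats the adjusted p. Descriptions of 23214 genes come from those tables. Of the identifiers, 26219 matched the RefSeq table of Setaria_viridis_v4.0, which served for gene order.

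The test was edgeR 4.0.16's quasi-likelihood F test under R 4.3.3, two-sided, after filterByExpr and TMM scaling, with 1 model of the 4 groups and no block. Genes with a Benjamini-Hochberg adjusted p under 0.05 over the 20310 tested were called, whatever their fold. Printed CPM are TMM-scaled without a prior count, and a prior of 2 was used for log2 CPM. Standard errors were derived from the F statistic. Replicates differed beyond counting noise (chi-square per degree of freedom 2.69 to 21.4 in 21 pairs). Results were recomputed with relative log expression scaling, with total counts, with filters of 1 count in total or 1 CPM in 3 libraries, with DESeq2 1.42.0, with limma-voom (limma 3.58.1) and sample weights, on the compared groups alone, without each replicate, and with 2 replicate blocks. Ratios within libraries were tested by exact permutation (scipy 1.17.1). The procedure was tested on simulated data. The 9 genes, the pathway lists and the naming rule (up to 3 called genes per list with the smallest p and a mean log2 CPM of at least 1, and the 4 genes most like each of 2) were chosen with earlier results of these data known. Protein and promoter sequences were not used here.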

Additional observations from a re-analysis of the deposited data

Results flagged for a closer look

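In 3 cases a library lay farther from the rest of its group of 4 than Dixon's 95% critical value of 0.829 allows, among 39 groups tested, where chance alone gives about 1 in 20. Alcohol dehydrogenase 2 stood at 10.1 CPM in control replicate 2, against 5.67 to 5.95 CPM in the other controls. The ratio of alcohol dehydrogenase 2 to 1 counts was 4.54 in the same library, against 1.71 to 2.08. The ratio of the non-symbiotic hemoglobin to the hemoglobin-like gene was 3.38 in MTS P5D6 replicate 2, against 1.61 to 1.89 in the other libraries of that isolate. Without control replicate 2, alcohol dehydrogenase 2 stood at a log2 fold change of 3.33 (AI2.2-A), 1.15 (CTB P6B8) and, for MTS P5D6, 1.21 in place of 3.07, 0.89 and 0.95.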

How the results depend on the processing

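Of the 54 comparisons of the 9 genes, 46 were called, and 41 of these kept their call and sign under every alternative run. The other 5, the smaller falls of the non-symbiotic hemoglobin-like gene with AI2.2-A and CTB P6B8 and 3 differences between isolates, are given with their ranges above, and the cause was not tested. Signs turned only among comparisons not called. With a replicate left out, pyruvate decarboxylase 1-like, AI2.2-A minus CTB P6B8, ran from -0.470 to 0.0670 (above 0 without CTB P6B8 replicate 1), and the non-symbiotic hemoglobin-like gene from -0.0650 to 0.221 (below 0 without AI2.2-A replicate 2). Alcohol dehydrogenase 2, CTB P6B8 minus MTS P5D6, ran from -0.170 to 0.0880, and was 0.00564 by total counts and 0.0565 by limma-voom. L-lactate dehydrogenase A-like ran from -0.232 to 0.134 for AI2.2-A minus MTS P5D6, with 0.0541 by total counts and 0.0453 by limma-voom, and from -0.0341 to 0.332 for CTB P6B8 minus MTS P5D6.

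Over all genes, AI2.2-A against CTB P6B8 gave 2110 calls, 871 when only those libraries were fitted (fewer samples) and 644 to 2464 with a replicate left out. CTB P6B8 against MTS P5D6 gave 5347, 3345 to 4775 with a replicate left out. Total counts changed the share of higher calls from 43.6% to 53.4% between AI2.2-A and CTB P6B8 and from 52.6% to 67.1% between AI2.2-A and MTS P5D6. They moved the median over all genes, on the log2 scale, to 0.13 (AI2.2-A against controls), 0.10 (CTB P6B8 against controls) and 0.12 (AI2.2-A against MTS P5D6).

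Same-numbered libraries did not deviate together (r from -0.15 to 0.14 over 21 pairs), so the numbers were taken as names. With the replicate block by title number, and by description number, 3 in place of 5 of the 9 genes were called between CTB P6B8 and MTS P5D6. Pyruvate decarboxylase 2 (adjusted p = 0.0553 by title and 0.185 by description) and alcohol dehydrogenase 1 (0.0695 and 0.109) lost their calls. Of all genes, 4140 were called with the title block and 2786 with the description block, in place of 5347. Low counts limit L-lactate dehydrogenase A-like most, with 5 counts over all controls.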

Other observations

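In the authors' deposited tables, all 54 log2 fold changes of the 9 genes have the sign found here. Of the 46 comparisons called here, the authors' deposited tables also call 44. The authors' deposited table gives an adjusted p of 0.0583 for pyruvate decarboxylase 2 and 0.363 for alcohol dehydrogenase 1 between CTB P6B8 and MTS P5D6. The authors' deposited table gives alcohol dehydrogenase 1 a log2 fold change of 3.06 with a standard error of 0.34 for AI2.2-A against controls, where the fit here gave 3.59 ± 0.17. Against controls they also give it 1.71 (CTB P6B8) and 2.19 (MTS P5D6), beside 2.24 and 2.69 here. Alcohol dehydrogenase 2 has 0.60 for CTB P6B8 (authors' adjusted p = 0.04995), beside 0.89 here. Not all genes were lower there: pyruvate decarboxylase 1-like has 2.07 for AI2.2-A, beside 2.02 here. The cause was not tested.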
